A study of Mus musculus with 12 samples.

Results

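Primary neurons of C57BL/6 mice that over-expressed H-Ras(G12V) were compared with mCherry neurons across all expressed genes. H-Ras(G12V) is a form of the small GTPase H-Ras that stays bound to GTP and is always active, and mCherry is a red fluorescent protein. The comparison used 6 of the 12 mRNA libraries of the series, 3 per group, all collected on day 10. Of 18223 genes in the deposited table, 12724 averaged 1 FPKM or more across the 6 libraries and were tested. FPKM is the number of sequenced fragments of a gene per kilobase of transcript, scaled to the size of the library. The remaining 5499 genes fell below that level, 621 of them listed at 0 in all 6 libraries. The study used this over-expression as a model of oncogene-induced senescence in neurons.

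The H-Ras gene was delivered with an adeno-associated virus, per the series' design text. Genotype is given as WT for the mCherry libraries and as the over-expression for the H-Ras(G12V) libraries. Not given in the sources used here are how mCherry was delivered, the promoter and serotype of the virus, the species of the H-Ras sequence, the brain region and the age of the mice. Nothing in the labels tells if libraries 1 to 3 of each group were grown from different cultures or mice. The p-values therefore cover the variation among the 6 libraries, part or all of which may be technical.

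Active RAS proteins recruit RAF kinases, which switch on the MEK and ERK kinases. ERK phosphorylates transcription factors of the ETS and AP-1 families, and the dual-specificity phosphatases and Sprouty proteins made in response damp the pathway. In dividing cells an always active RAS can end in senescence, with a stable arrest and the secretion of proteases, cytokines and growth factors. In neurons, RAS and ERK act downstream of neurotrophin receptors and calcium entry.

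FPKM summed to 527539, 544473 and 533477 in H-Ras(G12V) libraries 1, 2 and 3, and to 492439, 482212 and 480976 in mCherry libraries 1, 2 and 3. The sums of the H-Ras(G12V) libraries were thus all above those of the mCherry libraries. As FPKM is scaled to library size, these sums do not measure depth. In each library 12479 to 12728 genes reached 1 FPKM. Depth is not part of the deposited table, and a rough estimate from the steps of low values gave 15600000 to 17700000 fragments per library. Mouse Hras read 38.4, 51.6 and 33.5 against 45.9, 43 and 44.2 FPKM, in the order of libraries 1, 2 and 3 of the H-Ras(G12V) group and then of the mCherry group, an order kept below. This value does not check the labels, since a transgene of another species or without the annotated ends need not count as mouse Hras. The neuronal markers Map2 and Snap25 were present in all 6 libraries, at 184, 134 and 171 against 222, 248 and 191 FPKM and 219.9, 205 and 238 against 161, 175 and 564 FPKM.

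mCherry library 3 stood apart from mCherry libraries 1 and 2 and is therefore given beside them throughout. It was higher by at least 1 log2 unit than their mean in 770 tested genes and lower in 553, which is 10.4% of genes together. Libraries 1 and 2 differed by that much from each other in 14 genes. Among the H-Ras(G12V) libraries, 15, 49 and 74 genes of libraries 1, 2 and 3 lay that far from the mean of the other two. The median over genes of mCherry library 3 minus libraries 1 and 2 was -0.03, so its genes moved in both directions.

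Of the 20 genes in which mCherry library 3 departed most from libraries 1 and 2, 10 per direction, 13 are given here, picked after their values were seen. Cpne6, a calcium-binding protein of dendritic spines, read 36, 32.2 and 38.1 against 2.16, 2.34 and 72 FPKM. Arc, an immediate early gene of synapses, read 24.8, 35.1 and 22.5 against 1.22, 0.67 and 37.4 FPKM, and Ddn, a dendritic protein, 30.1, 35 and 33.1 against 10.6, 12.8 and 194 FPKM. Ptgs2, the inducible cyclooxygenase, read 23, 18 and 24.6 against 0.5, 0.46 and 21 FPKM. In these genes mCherry library 3 was close to or above the H-Ras(G12V) libraries, and libraries 1 and 2 were low. Rasgrp1 and Rasgrf1, which load RAS proteins with GTP, read 4.09, 3.7 and 5.15 against 0.69, 1 and 38.4 FPKM and 3.08, 4.73 and 4.73 against 0.66, 0.94 and 28.5 FPKM, so that only mCherry library 3 was high. Gdf1, a growth factor of the TGF-beta family, read 0, 0.05 and 0.01 against 0, 0 and 14.7 FPKM, and Rps27, a ribosomal protein of every cell, 0, 12.7 and 14.5 against 13.4, 0 and 56.9 FPKM.

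Among the genes lowest in the same library was Dcx, a microtubule protein of immature neurons, at 13.9, 10 and 12.6 against 105, 118 and 7.37 FPKM. Dpysl3 and Dpysl5, which act in growth cones, read 187, 183 and 138 against 559, 593 and 53.1 FPKM and 34.6, 42.8 and 20.7 against 204, 216 and 16.8 FPKM. Cd24a, a surface protein of young neurons, read 107, 96.4 and 85.2 against 366, 402 and 32.2 FPKM. In each of these the H-Ras(G12V) libraries and mCherry library 3 were low and mCherry libraries 1 and 2 were high. Erdr1 differed from these, at 33.8, 58.1 and 134 against 42.7, 37.6 and 0.26 FPKM, with mCherry library 3 alone low. The 20 genes were chosen for a wide gap within the mCherry group, which itself works against a call with all 6 libraries. In that fit 0 of the 20 genes were called (adjusted p between 0.11 and 0.98, limma), and 1 had an unadjusted p under 0.05. Without mCherry library 3, 17 were called and Gdf1, Rps27 and Erdr1 were not (adjusted p 0.888, 0.732 and 0.286, limma). That fit called 45.0% of all tested genes, and its mCherry values also served to choose the 20, so both counts are descriptions. Log2 fold changes without that library were 3.48, 3.86, 1.41 and 3.94 for Cpne6, Arc, Ddn and Ptgs2, and -3.10, -1.77, -2.71 and -1.99 for Dcx, Dpysl3, Dpysl5 and Cd24a.

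**Figure D1:**
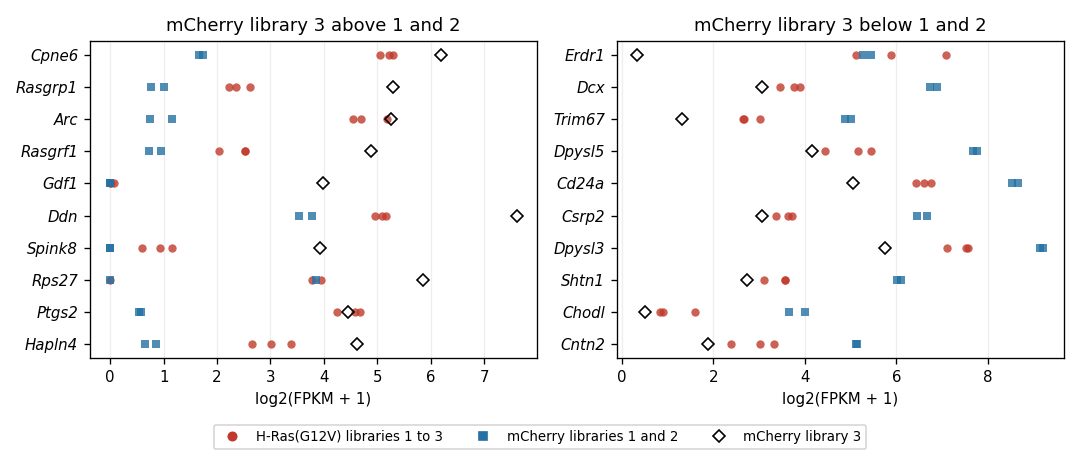
Level as log2(FPKM + 1) (x axis) of the 10 genes per direction in which mCherry library 3 lay farthest from the mean of mCherry libraries 1 and 2. Red circles are the 3 H-Ras(G12V) libraries, blue squares mCherry libraries 1 and 2, open diamonds mCherry library 3. In the right panel the H-Ras(G12V) libraries mostly lie on the side of mCherry library 3, except for Erdr1.

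In the test over all 6 libraries (limma on log2(FPKM + 1), two-sided, Benjamini-Hochberg adjusted p below 0.05), 2161 genes were called, 17.0% of those tested. Of these, 1312 (10.3%) were higher and 849 (6.67%) lower in the H-Ras(G12V) libraries. A difference of at least 1 log2 unit was seen for 500 called higher (3.93%) and 282 called lower (2.22%). At least 3 log2 units separated the groups for 14 higher and 10 lower genes. Every called gene had all 3 H-Ras(G12V) libraries on the same side of all 3 mCherry libraries, which held for 40.3% of tested genes in all. The calls were spread over the range of levels: with genes put into 4 equal sets by mean FPKM, the share called higher was 12.3% in the lowest set and 9.56% in the highest, and the share called lower was 6.29% and 6.44%. After scaling the libraries to a common sum, 861 genes were called higher and 1331 lower. Which direction held more calls therefore depended on the scaling.

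The size of the effect was then read against each kind of control library. Of the 1312 genes called higher, the H-Ras(G12V) mean was at least 1 log2 unit above both mCherry library 3 and the mean of libraries 1 and 2 in 286. It was that far above libraries 1 and 2 only in 261 genes, and above library 3 only in 112. For the 849 genes called lower these counts were 135, 186 and 76. mCherry library 3 lay nearer to the H-Ras(G12V) mean than to its own group in 187 of the genes called higher and 153 of those called lower.

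Leaving out mCherry library 3 raised the count to 5722 genes (45.0%), 3236 higher (25.4%) and 2486 lower (19.5%), and these included all 2161 genes called with 6 libraries. Its 2 remaining controls are nearly alike, so this fit rests on a small spread. In 1646 of the 3236 (50.9%) and 1477 of the 2486 (59.4%), mCherry library 3 was nearer to the H-Ras(G12V) mean than to mCherry libraries 1 and 2. Leaving out any 1 of the other 5 libraries lowered the count to between 507 and 1158. With all 6 libraries and without each in turn, 267 genes were called higher and 175 lower every time. With the nearly alike mCherry libraries 1 and 2 averaged into 1 control, 630 genes were called. Of 163 called genes picked by the naming rule, 117 kept the call in that fit. It is not given gene by gene below, and Zyx, Ccn1, Clcf1, Lcn2 and Mt1 are among the genes that lost the call in it.

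**Figure D2:**
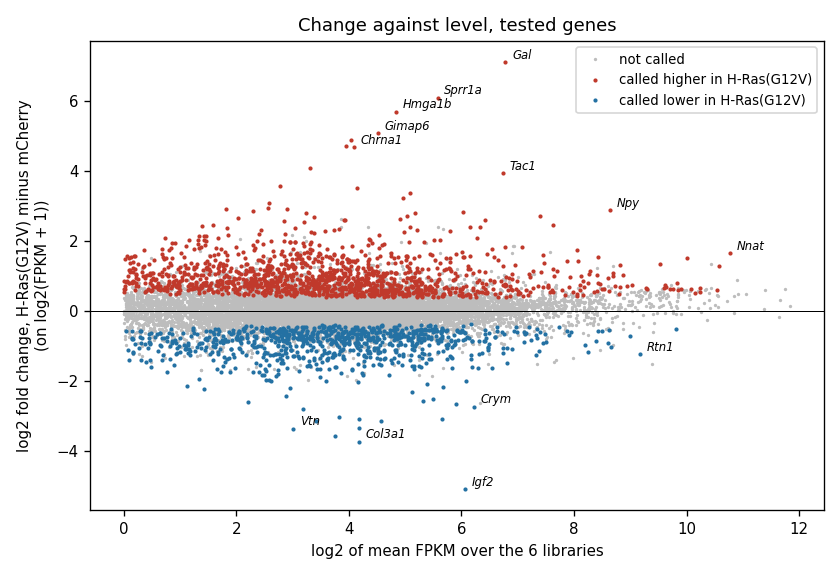
Log2 fold change of H-Ras(G12V) against mCherry (y axis, on log2(FPKM + 1)) against the log2 of the mean FPKM over the 6 libraries (x axis) for the 12724 tested genes. Red points were called higher (1312), blue points lower (849), grey points were not called.

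The largest rises were those of secreted peptides, injury-associated proteins and genes nearly silent in the mCherry libraries. Gal, the precursor of the neuropeptide galanin, read 270.5, 283 and 104 against 0.37, 0.13 and 0.9 FPKM (log2 fold change 7.13 ± 0.40 (SE), adjusted p = 0.000837). Sprr1a, a small proline-rich protein of cornified skin that injured peripheral neurons also make, read 120.4, 129.8 and 35.5 against 0.25, 0.25 and 0.13 FPKM (log2 fold change 6.11 ± 0.46 (SE), adjusted p = 0.00151). Gimap6, a GTPase best known from lymphocytes, read 44.3, 36.6 and 54.8 against 0.09, 0 and 1.15 FPKM (log2 fold change 5.10 ± 0.31 (SE), adjusted p = 0.000837). All 3 H-Ras(G12V) libraries stood far above all mCherry libraries in these genes, with H-Ras(G12V) library 3 lowest for Gal and Sprr1a.

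Chrna1, a subunit of the muscle acetylcholine receptor, read 32, 34 and 34.9 against 0.15, 0.06 and 0.96 FPKM. Crisp1, a secreted protein of the epididymis, read 42.5, 26.3 and 23.3 against 0.47, 0.05 and 0 FPKM, and Hmga1b, a chromatin-binding protein whose sequence is shared with Hmga1, read 46.6, 80.9 and 43.3 against 0.08, 0 and 0.12 FPKM, so its reads could belong in part to Hmga1. Hmga2, the related protein of embryonic and senescent cells, read 12.3, 10 and 18.4 against 0.14, 0.16 and 0.26 FPKM, and Hmga1 itself 73, 91.2 and 76 against 25.6, 22.9 and 43.9 FPKM. Lce1g, a protein of the cornified envelope, was listed at 0 in all mCherry libraries and read 27.6, 55.8 and 15.5 FPKM in the H-Ras(G12V) libraries. An entry of 0 may also be a failed estimate, since Rps27 was listed at 0 in H-Ras(G12V) library 1 and mCherry library 2. Adjusted p for these 6 genes lay between 0.000487 and 0.0138. Gal, Sprr1a, Gimap6, Chrna1, Crisp1, Hmga1b, Hmga2 and Lce1g also passed without each library in turn. Hmga1 lost the call without H-Ras(G12V) library 1, 2 or 3 or mCherry library 1.

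**Figure D3:**
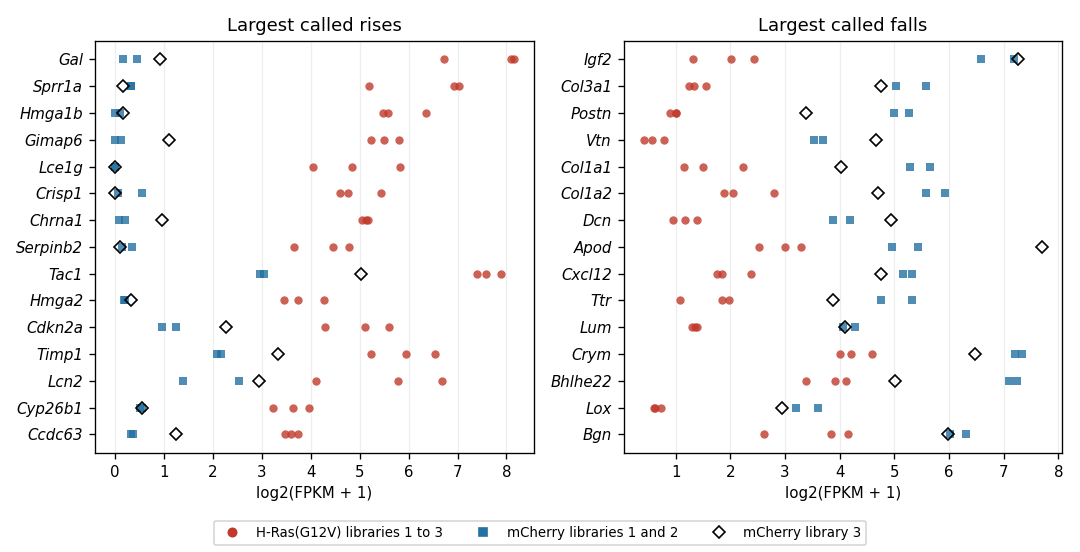
Level as log2(FPKM + 1) (x axis) of the 15 rises and 15 falls of greatest log2 fold change, taken from called genes with a higher group averaging at least 5 FPKM. Symbols are as in the plot of the genes of mCherry library 3. The lack of overlap is set by that choice. A call with all 6 libraries also favours genes in which mCherry library 3 lies with its group. Its open diamond lies nearer to the other mCherry libraries than to the H-Ras(G12V) mean in all 30 genes but 1, Bhlhe22.

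The windows around the start sites of these genes were searched for the letters TGANTCA, the core to which FOS and JUN dimers (AP-1) can bind. Each window runs from 250 bases before to 50 bases after a RefSeq start site on GRCm38.p6, a later build than the mm9 of the expression table, and genes were matched by symbol. Of the 15 genes with the largest rises, 14 had a window, and 4 (Sprr1a, Hmga1b, Chrna1 and Serpinb2) held the letters. Of the 15 genes with the largest falls, 8 had a window and 0 held the letters. The windows of Sprr1a, Serpinb2 and Chrna1 are shown, with those of Plaur and Mmp10, which belong to the protease system described below, and that of Gal, the gene with the largest rise, in which the letters were not found. The windows shown were picked by hand, and those of Plaur and Mmp10 both hold the letters. They do not give the share of protease genes with the letters. Timp1, of the same system and among the 15 largest rises, is not among the 4 genes. Capitals mark the AP-1 letters.
Sprr1a promoter window, chr3:92485832-92486131, - strand: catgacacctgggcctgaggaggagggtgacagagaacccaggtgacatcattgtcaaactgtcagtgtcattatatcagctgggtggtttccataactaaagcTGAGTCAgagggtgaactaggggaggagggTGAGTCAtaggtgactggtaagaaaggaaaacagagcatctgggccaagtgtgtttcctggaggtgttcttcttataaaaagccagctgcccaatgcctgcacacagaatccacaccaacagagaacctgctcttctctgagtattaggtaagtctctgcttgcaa
Serpinb2 promoter window, chr1:107511173-107511472, + strand: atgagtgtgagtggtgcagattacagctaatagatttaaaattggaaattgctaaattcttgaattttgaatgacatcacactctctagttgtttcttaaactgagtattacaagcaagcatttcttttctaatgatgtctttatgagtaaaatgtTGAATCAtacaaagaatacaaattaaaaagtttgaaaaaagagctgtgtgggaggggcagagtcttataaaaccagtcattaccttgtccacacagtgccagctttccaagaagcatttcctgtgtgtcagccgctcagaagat
Chrna1 promoter window, chr2:73580289-73580588, - strand: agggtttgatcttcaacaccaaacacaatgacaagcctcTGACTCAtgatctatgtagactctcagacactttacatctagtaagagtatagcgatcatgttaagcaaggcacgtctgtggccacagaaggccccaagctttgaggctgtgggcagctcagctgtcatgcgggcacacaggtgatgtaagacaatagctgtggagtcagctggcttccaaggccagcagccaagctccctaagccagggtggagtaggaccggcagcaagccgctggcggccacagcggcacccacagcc
Plaur promoter window, chr7:24462233-24462532, + strand: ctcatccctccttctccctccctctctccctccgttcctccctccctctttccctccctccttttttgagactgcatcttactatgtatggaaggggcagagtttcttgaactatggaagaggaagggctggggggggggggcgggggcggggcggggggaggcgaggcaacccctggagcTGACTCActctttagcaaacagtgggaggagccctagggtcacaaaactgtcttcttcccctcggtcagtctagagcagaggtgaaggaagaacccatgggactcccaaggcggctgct
Mmp10 promoter window, chr9:7502092-7502391, + strand: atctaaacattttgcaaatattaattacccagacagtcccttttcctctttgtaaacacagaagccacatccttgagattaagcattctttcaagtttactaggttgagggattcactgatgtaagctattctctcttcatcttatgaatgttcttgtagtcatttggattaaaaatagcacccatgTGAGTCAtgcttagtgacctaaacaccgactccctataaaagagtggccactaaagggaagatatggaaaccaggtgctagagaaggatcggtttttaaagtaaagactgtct
Gal promoter window, chr19:3414495-3414794, - strand: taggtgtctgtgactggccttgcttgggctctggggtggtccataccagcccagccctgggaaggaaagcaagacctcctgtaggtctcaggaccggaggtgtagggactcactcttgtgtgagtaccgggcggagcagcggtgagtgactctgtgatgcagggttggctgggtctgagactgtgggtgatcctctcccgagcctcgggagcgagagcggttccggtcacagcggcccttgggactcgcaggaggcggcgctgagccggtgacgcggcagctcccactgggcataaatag

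Sprr1a held 2 matches, both TGAGTCA, 146 and 116 bases before the start site. The matches of Plaur and Mmp10 lay 69 and 63 bases before it, that of Serpinb2 94 bases and that of Chrna1 211 bases before it. Serpinb2 has 2 windows in the table, of which the first is printed. A match is a description of the sequence and not evidence of binding.

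Over all genes, 13.6% of the 491 windows of genes called higher by at least 1 log2 unit held TGANTCA on either strand. The share was 8.01% for all genes called higher, 4.85% over the windows of all tested genes, 3.95% for genes called lower, 4.29% for genes called lower by at least 1 log2 unit, and 7.81% over all 32851 windows of the table. The letters TATAAA, the TATA box, were found in 8.86% of windows of genes called higher and 8.13% of those called lower, and at a difference of at least 1 log2 unit in 13% and 13.9%, against 6.92% for tested genes. CCGGAAG, an ETS core, was found in 12.5% and 5.87% of windows of genes called higher and lower, and in 4.89% and 2.50% at a difference of at least 1 log2 unit, against 16.5% for tested genes. Other letters were also searched, given here for genes called higher, genes called lower and tested genes. TGACGTCA (CRE) was found in 2.54%, 4.29% and 3.02% of windows, and GCGGGAA (E2F) in 8.17%, 4.97% and 8.14%. For CCAAT (NF-Y) the shares were 40.2%, 33.2% and 37.7%, and for TGATGNAA (ATF4) 1.93%, 1.81% and 2.13%. Median GC content was 59.7% in the windows of genes higher by at least 1 log2 unit, 59.8% in those lower by that much and 61.0% for tested genes. These shares are descriptions with no test, and windows of 1 gene can overlap.

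Gene lists were read against the share of all tested genes called in each direction, 10.3% higher and 6.67% lower, and against the median log2 fold change of 0.05 over all tested genes. Counts in brackets come from fits that leave out 1 library, or from a rescaling where it moves a count by more than 1.5 times or turns a median. Scaling the libraries to a common sum moved the median of all genes to -0.07 and gave 861 higher (6.77%) and 1331 lower (10.5%) calls. Scaling by medians of ratios moved it to -0.01 and gave 1051 (8.26%) and 1083 (8.51%). The lists were chosen with results of these data known, so their counts are descriptions. A member low in the mCherry libraries can pass the filter through the H-Ras(G12V) libraries alone, and the reverse can hold for falls. The shares called are therefore not free of the filter.

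Neuropeptide genes and genes of injured axons rose in part. Among neuropeptide precursors and their processing enzymes, 10 of 27 tested members (37%) were called higher and 1 (3.7%) lower, with a median log2 fold change of 0.78 (16 and 1 without mCherry library 3, 7 and 0 to 1 without another library). Tac1, the precursor of substance P, read 190.5, 168 and 234 against 6.8, 7.27 and 31.7 FPKM (log2 fold change 3.94). Npy, neuropeptide Y, read 598, 798 and 601 against 48.9, 48.1 and 288 FPKM (2.89), with mCherry library 3 between its own group and the H-Ras(G12V) libraries. Scg2, secretogranin of dense-core vesicles, read 409, 382 and 436 against 108, 92.9 and 173 FPKM. Nmb, neuromedin B, read 21.8, 23.9 and 27.7 against 4.35, 5 and 2.75 FPKM, while Grp, gastrin-releasing peptide, read 99.5, 122 and 105 against 6, 8.8 and 51.1 FPKM. Nmb was lowest in mCherry library 3, and Grp was highest there among the controls. Tac1, Scg2 and Nmb also passed without each library in turn. Npy and Grp kept the call only where the library left out was mCherry library 3.

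For the genes known from injured and regenerating axons, 12 of 34 tested members (35.3%) were called higher and 3 (8.82%) lower, with a median log2 fold change of 0.53 (20 and 10 without mCherry library 3, 8 to 9 and 1 to 2 without another library). Beyond Gal, Sprr1a and Npy, the named members were Tnfrsf12a, the TWEAK receptor, at 113, 149 and 92.4 against 14.6, 15 and 42.8 FPKM, and Ecel1, a protease induced in damaged neurons, at 13.1, 18.9 and 11.7 against 2.19, 2.22 and 1.48 FPKM. Atf3, the transcription factor most used as an injury marker, read 7.19, 8.6 and 5.49 against 1.43, 1.78 and 4.69 FPKM, and mCherry library 3 came close to the H-Ras(G12V) libraries. Lgals1, galectin-1, read 458, 579 and 498 against 187, 144 and 195 FPKM. Gap43, the growth cone protein of the same list, was not called at 508, 524 and 459 against 672, 716 and 250.1 FPKM, with mCherry library 3 lowest and libraries 1 and 2 highest. Ecel1 and Lgals1 also passed without each library in turn. Atf3 kept the call only where the library left out was mCherry library 3. Tnfrsf12a lost the call without H-Ras(G12V) library 1 or 2.

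The keratinocyte-type genes were mostly below the level for testing. Of 51 epithelial and cornified envelope genes in the table, 6 reached the level for testing. 3 of 6 tested members (50%) were called higher and 0 (0%) lower, with a median log2 fold change of 1.04 (3 and 0 without mCherry library 3, 2 to 3 and 0 without another library). They passed the filter through the H-Ras(G12V) libraries where these are high. The called members were Sprr1a, Lce1g and Lce1f, and Lce1f, a neighbour of Lce1g in name and function, read 2.65, 2.79 and 0.63 FPKM against listed values of 0 in all mCherry libraries. Lce1f lost the call without H-Ras(G12V) library 1 or 2 or mCherry library 1 or 2.

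Extracellular proteolysis was a group with many rises. Of the matrix metalloproteinases, their inhibitors and the plasminogen activator system, 14 of 32 tested members (43.8%) were called higher and 1 (3.12%) lower, with a median log2 fold change of 0.82 (20 and 3 without mCherry library 3, 7 to 11 and 0 to 1 without another library, 13 and 2 after scaling to a common sum). Plau, the urokinase plasminogen activator, read 12.8, 16.3 and 10.2 against 1.46, 1.58 and 0.97 FPKM, and its receptor Plaur 4.92, 4.27 and 6.17 against 0.29, 0.35 and 0.45 FPKM. Serpinb2, an inhibitor of urokinase, read 26.6, 20.8 and 11.7 against 0.28, 0.11 and 0.07 FPKM. Protease, receptor and inhibitor were thus all higher in each H-Ras(G12V) library than in each mCherry library. Timp1, which inhibits metalloproteinases, read 60.4, 91.8 and 36.7 against 3.48, 3.25 and 9.1 FPKM, and Mmp10, stromelysin-2, 6.58, 5.62 and 3.28 against 0.12, 0.08 and 0.13 FPKM. Adjusted p for the 5 genes lay between 0.00114 and 0.00543. Plaur, Serpinb2 and Mmp10 stayed below 1 FPKM in every mCherry library and passed the filter through the H-Ras(G12V) libraries. Plau, Plaur, Serpinb2, Timp1 and Mmp10 also passed without each library in turn.

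Genes of cell adhesion rose in part. In the list of integrins and focal adhesion genes, 12 of 33 tested members (36.4%) were called higher and 1 (3.03%) lower, with a median log2 fold change of 0.56 (20 and 1 without mCherry library 3, 4 to 10 and 0 to 1 without another library). Itga7, the laminin-binding integrin alpha chain that regrowing neurons express, read 26.2, 32.1 and 21.9 against 3.37, 3.68 and 3.31 FPKM, and Pxn, the focal adhesion scaffold paxillin, 18.9, 21.2 and 17.9 against 8.59, 8.04 and 7.8 FPKM. Zyx, zyxin, read 45.1, 63 and 34.3 against 14.8, 12.1 and 23.5 FPKM, with mCherry library 3 highest of the controls. Itgb3, the beta-3 chain, read 2.59, 2.52 and 1.75 against 0.55, 0.49 and 0.57 FPKM. Itga8 was the member called lower, at 2.03, 1.3 and 3.98 against 6.53, 5.16 and 6.14 FPKM. Itga7 and Pxn also passed without each library in turn. Zyx and Itga8 lost the call without H-Ras(G12V) library 1 or 2 or mCherry library 1 or 2. Itgb3 lost the call without H-Ras(G12V) library 1.

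Actin-linked SRF and YAP targets did not move one way. 5 of 27 tested members (18.5%) were called higher and 4 (14.8%) lower, with a median log2 fold change of 0.08 (9 and 7 with a median of 0.00 without mCherry library 3, 1 to 3 and 2 to 3 without another library, 3 and 4 with a median of -0.04 after scaling to a common sum). Tagln2, transgelin-2, rose to 73.8, 78.5 and 85.4 against 19.6, 20.7 and 16.2 FPKM, and Ccn1, a matricellular protein, to 40.1, 56.1 and 29.2 against 13.3, 13.5 and 17.8 FPKM. Acta2 and Tagln, smooth muscle actin and transgelin of contractile cells, fell, at 1.62, 2.61 and 2 against 15.5, 15 and 9.59 FPKM and 5.57, 10.2 and 3.96 against 21.5, 24.6 and 16.5 FPKM. Both are also expressed by the mural cells and fibroblasts whose markers are given below. Tagln2 and Acta2 also passed without each library in turn. Ccn1 lost the call without H-Ras(G12V) library 1 or mCherry library 1. Tagln lost the call without H-Ras(G12V) library 1 or 3 or mCherry library 1 or 2. In the calcium-binding S100 proteins and membrane-binding annexins, 5 of 17 tested members (29.4%) were called higher and 0 (0%) lower, with a median log2 fold change of 0.77 (12 and 0 without mCherry library 3, 2 to 5 and 0 without another library). S100a10 read 258, 236 and 208 against 112, 105 and 102 FPKM, S100a11 343, 394 and 238 against 176, 149.6 and 159.8 FPKM and Anxa3 17, 19.5 and 20.8 against 8.83, 8.38 and 10.3 FPKM. In these genes all mCherry libraries lay together below the H-Ras(G12V) libraries. S100a16 differed, at 113, 103 and 105 against 38.8, 37.4 and 76.3 FPKM, with mCherry library 3 between its own group and the H-Ras(G12V) libraries. S100a10 and Anxa3 also passed without each library in turn. S100a16 kept the call only where the library left out was mCherry library 3. S100a11 lost the call without H-Ras(G12V) library 1 or 2 or mCherry library 1 or 2.

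Collagen and other matrix genes were called lower more than higher. Of the collagens, 4 of 31 tested members (12.9%) were called higher and 11 (35.5%) lower, with a median log2 fold change of -0.41 (8 and 16 without mCherry library 3, 2 to 3 and 7 to 10 without another library). Col3a1, of fibrillar connective tissue, read 1.52, 1.93 and 1.37 against 46.5, 31.5 and 26.1 FPKM, Col1a1 1.82, 3.7 and 1.22 against 49.1, 37.8 and 15.3 FPKM and Col1a2 3.11, 5.94 and 2.69 against 59.9, 46.6 and 25 FPKM. Levels in mCherry library 3 were the lowest of the controls in these 3 genes and still above every H-Ras(G12V) library. Col28a1, a collagen found around Schwann cells, rose, at 5.47, 4.8 and 3.56 against 0.58, 0.48 and 0.62 FPKM. For non-collagen matrix and basement membrane genes, 10 of 51 tested members (19.6%) were called higher and 16 (31.4%) lower, with a median log2 fold change of -0.44 (14 and 24 without mCherry library 3, 3 to 5 and 9 to 12 without another library). Vtn, vitronectin, read 0.73, 0.33 and 0.48 against 11.9, 10.5 and 24.4 FPKM, Dcn, the proteoglycan decorin, 0.94, 1.63 and 1.24 against 17.2, 13.6 and 29.5 FPKM, and Lum, lumican, 1.56, 1.63 and 1.46 against 18.4, 15.6 and 16 FPKM. Lox, which crosslinks collagen, read 0.54, 0.52 and 0.66 against 11.2, 8.14 and 6.7 FPKM. Tnc, tenascin-C, which glia and developing tissue lay down, went the other way at 111, 152 and 175 against 35.2, 34.2 and 9.28 FPKM, and Ncan, the brain proteoglycan neurocan, rose to 504, 454 and 412 against 239, 234 and 202 FPKM. Col3a1, Col1a1, Col1a2, Col28a1, Vtn, Dcn, Lum, Lox and Ncan also passed without each library in turn. Tnc lost the call without H-Ras(G12V) library 1, 2 or 3.

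The collagens and proteoglycans above are also fibroblast markers. Over the 20 markers of fibroblasts, meninges and mural cells, FPKM summed to 86.7, 82.7 and 94.6 in the H-Ras(G12V) libraries and 473, 363 and 390 in the mCherry libraries. Of these markers, 1 of 16 tested members (6.25%) were called higher and 12 (75%) lower, with a median log2 fold change of -2.50 (2 and 12 without mCherry library 3, 1 and 10 without another library). The 2 groups do not overlap, and mCherry library 3 was inside the range of mCherry libraries 1 and 2 in this sum. In bulk RNA, fewer cells of a type and less RNA per cell cannot be told apart, and the part of such cells in the fall of matrix genes was not tested.

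Igf2, insulin-like growth factor 2, had the lowest log2 fold change of the called genes, at 1.48, 3.03 and 4.4 against 144, 95.1 and 153 FPKM (log2 fold change -5.09 ± 0.31 (SE), adjusted p = 0.000837). In the brain Igf2 is made mainly by meninges, choroid plexus and vessels, and it belongs to the marker list just given. Igf2 is also the member called lower in the list of the insulin-like growth factor and insulin axis. In that list, 5 of 16 tested members (31.2%) were called higher and 1 (6.25%) lower, with a median log2 fold change of 0.10 (7 and 3 with a median of -0.06 without mCherry library 3, 3 to 4 and 1 without another library, 4 and 1 with a median of -0.02 after scaling to a common sum). Pappa2, a protease that frees IGF from binding proteins, read 7.65, 5.29 and 4.42 against 0.1, 0.09 and 0.44 FPKM, and the binding protein Igfbp3 209, 235 and 348 against 80.2, 77 and 95.2 FPKM. Igf2bp3, an RNA-binding protein named for its binding to Igf2 mRNA, rose, at 12.1, 10.2 and 12.1 against 4.15, 4.25 and 3.84 FPKM. Igf2, Pappa2, Igfbp3 and Igf2bp3 also passed without each library in turn. Other large falls without a place in the matrix were Cxcl12, a chemokine of meninges and stroma, at 2.61, 4.22 and 2.37 against 39.1, 34.8 and 26 FPKM, Ttr, the thyroxine carrier of choroid plexus, at 2.91, 2.59 and 1.11 against 26.1, 38.7 and 13.7 FPKM, and Apod, a lipocalin, at 7.04, 8.8 and 4.75 against 42.4, 30.2 and 208 FPKM. Apod was far highest in mCherry library 3. Cxcl12 and Ttr also passed without each library in turn. Apod lost the call without H-Ras(G12V) library 1, 2 or 3 or mCherry library 1.

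Ligands that start receptor tyrosine kinase signalling changed one by one. In the EGF and FGF families, 5 of 21 tested members (23.8%) were called higher and 3 (14.3%) lower, with a median log2 fold change of 0.09 (8 and 4 without mCherry library 3, 4 and 1 to 2 without another library, 4 and 3 with a median of -0.04 after scaling to a common sum). Areg, amphiregulin, read 7.23, 9.2 and 6.87 against 0.26, 0.26 and 0.6 FPKM, and Hbegf, heparin-binding EGF, 41.2, 52.6 and 32.9 against 13.1, 13.2 and 15 FPKM. Both bind the EGF receptor, whose gene Egfr read 16.2, 19.2 and 18.2 against 8.89, 7.28 and 8.19 FPKM. Fgf13, an intracellular FGF homologue that binds sodium channels, fell, at 49.5, 40.6 and 45.1 against 132, 146 and 149 FPKM. Areg, Hbegf, Egfr and Fgf13 also passed without each library in turn. For neurotrophins, GDNF ligands and trophic cytokines, 6 of 30 tested members (20%) were called higher and 4 (13.3%) lower, with a median log2 fold change of 0.21 (16 and 6 without mCherry library 3, 1 to 5 and 3 without another library). Clcf1, a cytokine of the CNTF family, rose, at 13, 25.7 and 4.07 against 0.67, 0.47 and 0.78 FPKM. Osmr, the oncostatin M receptor, rose, at 15.9, 13.6 and 10.3 against 2.7, 3.11 and 6.02 FPKM, and Ntf3, neurotrophin-3, fell, at 0.48, 0.4 and 0.37 against 2.72, 3.07 and 2.55 FPKM. Of these 3 genes, Clcf1 had the widest spread over the H-Ras(G12V) libraries. Ntf3 also passed without each library in turn. Clcf1 lost the call without H-Ras(G12V) library 1 or mCherry library 1 or 2. Osmr lost the call without H-Ras(G12V) library 1 or 2.

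Genes of the RAS pathway itself moved in both directions. In the list of RAS family GTPases with their exchange factors, GTPase-activating proteins and effectors, 6 of 45 tested members (13.3%) were called higher and 4 (8.89%) lower, with a median log2 fold change of 0.05 (18 and 10 without mCherry library 3, 3 to 5 and 1 to 4 without another library, 5 and 4 with a median of -0.07 after scaling to a common sum, 5 and 4 with a median of -0.01 after scaling to medians of ratios), shares close to those of all genes. Nras was not called, at 45.9, 37.8 and 44.2 against 38, 41 and 27.3 FPKM. Rasa4, which stops RAS signals, read 2.31, 4.66 and 2.03 against 0.51, 0.32 and 0.22 FPKM, Rassf8 12.7, 11.3 and 12.4 against 2.99, 3.02 and 5.46 FPKM and Rras 14.5, 22 and 14.1 against 7.1, 7.8 and 9.13 FPKM. Rerg, a growth-inhibiting RAS-like protein, fell, at 1.57, 1.3 and 1.85 against 15.3, 15.2 and 9.06 FPKM. Rasa4, Rassf8 and Rerg also passed without each library in turn. Rras lost the call without H-Ras(G12V) library 1 or mCherry library 1 or 2. In the list of ERK cascade kinases, dual-specificity phosphatases and Sprouty proteins, 5 of 34 tested members (14.7%) were called higher and 1 (2.94%) lower, with a median log2 fold change of 0.23 (16 and 5 without mCherry library 3, 2 to 4 and 1 without another library). Of the 5 that rose, 4 are phosphatases or Sprouty proteins, which also make up much of the list, so this count is a description. The other is the kinase Rps6ka3, at 32.1, 21.6 and 30.7 against 15.2, 15.2 and 17.5 FPKM, named after its values were seen. Dusp5, which removes phosphate from nuclear ERK, read 15, 20.9 and 12.9 against 1.47, 0.95 and 4.16 FPKM, Dusp4 40.2, 40.9 and 40.9 against 20.3, 19.2 and 25.8 FPKM, Dusp10 6.25, 7.84 and 6.92 against 2.01, 2.34 and 1.99 FPKM and Spry4 28.1, 27.2 and 34.7 against 8.54, 6.29 and 18.3 FPKM. Dusp8, a neuronal member that acts on stress kinases, fell, at 13, 13.4 and 10.8 against 37.2, 37.1 and 25.2 FPKM. Dusp5, Dusp10 and Dusp8 also passed without each library in turn. Spry4 kept the call only where the library left out was mCherry library 3. Dusp4 lost the call without H-Ras(G12V) library 1.

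ETS, AP-1 and KLF transcription factors, a list by family that also holds ATF, MAF and RUNX genes, rose in part. Whether ERK acts on them here was not tested. 7 of 40 tested members (17.5%) were called higher and 2 (5%) lower, with a median log2 fold change of 0.25 (21 and 5 without mCherry library 3, 2 to 3 and 0 to 1 without another library, 4 and 2 after scaling to a common sum). Fosl1, the AP-1 subunit FRA-1, read 3.06, 5.16 and 1.62 against 0, 0.11 and 0.52 FPKM. Ets1 read 8.37, 8.27 and 8.78 against 2.35, 2.46 and 3 FPKM, and Klf10, an early gene of TGF-beta and growth factors, 19.5, 17.9 and 24.1 against 5.36, 5.01 and 11.4 FPKM. Runx1t1, a corepressor of neurons, fell, at 0.42, 0.39 and 0.45 against 3.81, 4.6 and 1.54 FPKM. Ets1 also passed without each library in turn. Klf10 and Runx1t1 kept the call only where the library left out was mCherry library 3. Fosl1 lost the call without H-Ras(G12V) library 1 or mCherry library 1 or 2.

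Patterning homeobox genes and forebrain transcription factors, a list that also holds factors of other cells, were called lower more than higher. Of these, 5 of 48 tested members (10.4%) were called higher and 20 (41.7%) lower, with a median log2 fold change of -0.53 (9 and 27 without mCherry library 3, 2 to 4 and 5 to 9 without another library, 3 and 23 after scaling to a common sum, 3 and 20 after scaling to medians of ratios). Bcl11b, of deep-layer cortical projection neurons, read 2.11, 2.14 and 1.98 against 13.1, 14 and 5.75 FPKM, Tbr1 2.52, 2.16 and 1.75 against 11.2, 11.3 and 5.25 FPKM, Emx1, of the dorsal forebrain, 3.15, 3.48 and 2.35 against 13.3, 13.9 and 5.51 FPKM, and Fezf2 5.72, 6.15 and 4.77 against 15.5, 15.7 and 9.58 FPKM. mCherry library 3 lay between mCherry libraries 1 and 2 and the H-Ras(G12V) libraries in all 4. Nr4a2 behaved otherwise, at 3.62, 5.02 and 3.87 against 11.3, 9.87 and 25.7 FPKM, with mCherry library 3 highest. Bhlhe22, a cortical area factor, fell, at 16.2, 14.1 and 9.42 against 136, 150.2 and 31.3 FPKM. Tbx18, of mural and meningeal cells, read 0.14, 0.29 and 0.13 against 3.06, 2.7 and 2.11 FPKM. Tbx18 also passed without each library in turn. Emx1 and Bhlhe22 kept the call only where the library left out was mCherry library 3. Bcl11b lost the call without H-Ras(G12V) library 1. Tbr1 lost the call without H-Ras(G12V) library 1, 2 or 3. Fezf2 lost the call without H-Ras(G12V) library 1 or 3 or mCherry library 1 or 2. Nr4a2 lost the call without H-Ras(G12V) library 1, 2 or 3 or mCherry library 1.

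Receptors for glutamate, GABA and glycine were mostly called lower where they were called. Of glutamate receptor subunits, 1 of 23 tested members (4.35%) were called higher and 8 (34.8%) lower, with a median log2 fold change of -0.27 (3 and 8 without mCherry library 3, 0 and 4 to 5 without another library, 0 and 8 after scaling to a common sum, 0 and 8 after scaling to medians of ratios). Gria1, an AMPA receptor subunit, read 39.4, 38.5 and 39.8 against 81.5, 92.5 and 142 FPKM, Grin2b, an NMDA receptor subunit, 10.5, 9.79 and 9.33 against 21.6, 25.3 and 20.2 FPKM, and Grm2, a metabotropic receptor, 0.24, 0.3 and 0.36 against 5.91, 5.01 and 4.37 FPKM. In the inhibitory receptors, 1 of 16 tested members (6.25%) were called higher and 7 (43.8%) lower, with a median log2 fold change of -0.73 (1 and 9 without mCherry library 3, 0 to 1 and 2 to 5 without another library). Gabra5 and Gabra3 read 37.1, 31 and 38.3 against 106, 101 and 124 FPKM and 5.19, 2.58 and 8.14 against 14, 15.1 and 18.9 FPKM. Gabrg1 rose, at 7.94, 5.14 and 10.7 against 2.62, 2.37 and 3.28 FPKM. mCherry library 3 was the highest control in Gria1, Gabra5, Gabra3 and Gabrg1, so that it lay farther from the H-Ras(G12V) libraries than the others did for the 3 that fell. Gria1, Grin2b, Grm2 and Gabra5 also passed without each library in turn. Gabra3 lost the call without H-Ras(G12V) library 1 or mCherry library 1 or 2. Gabrg1 lost the call without H-Ras(G12V) library 1 or 3 or mCherry library 1 or 2.

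Ion channels showed the same in part. For voltage-gated sodium and calcium channels, 1 of 29 tested members (3.45%) were called higher and 8 (27.6%) lower, with a median log2 fold change of -0.31 (5 and 12 without mCherry library 3, 0 and 4 to 6 without another library). Scn3b, an auxiliary sodium channel subunit, read 15.3, 13 and 12.8 against 41.7, 47 and 32.7 FPKM, Scn3a, the sodium channel of developing neurons, 3.16, 2.39 and 3.23 against 8.58, 9.25 and 6.95 FPKM, and Cacnb3, an auxiliary calcium channel subunit, 21.6, 24.6 and 18.2 against 54.6, 59.7 and 48.1 FPKM. Among potassium and HCN channels, 2 of 53 tested members (3.77%) were called higher and 5 (9.43%) lower, with a median log2 fold change of -0.34 (15 and 17 without mCherry library 3, 0 to 1 and 3 to 5 without another library). Kcnj3, the GIRK1 subunit of G protein-gated channels, fell, at 7.76, 6.06 and 8.63 against 24.2, 23.8 and 29.4 FPKM, and Kcnf1, a silent modifier subunit, rose, at 16.6, 18.2 and 16.8 against 4.19, 4.23 and 8.65 FPKM. In the potassium and HCN channel list mCherry library 3 stood above libraries 1 and 2 by a median of 0.59, and the H-Ras(G12V) libraries stood at -0.12, 0.08 and -0.07 on that scale. Scn3b, Scn3a, Cacnb3 and Kcnj3 also passed without each library in turn. Kcnf1 lost the call without H-Ras(G12V) library 1 or 2.

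Guidance molecules of axons changed in both directions. 9 of 62 tested members (14.5%) were called higher and 18 (29%) lower, with a median log2 fold change of -0.47 (10 and 33 without mCherry library 3, 4 to 6 and 2 to 11 without another library). Nrp1, the semaphorin co-receptor neuropilin-1, read 14.9, 13 and 14.3 against 82.5, 91.5 and 33.5 FPKM, and Epha4, an ephrin receptor, 21.4, 16.1 and 17.4 against 63.7, 69.1 and 40.2 FPKM. Ntn1, the attractant netrin-1, and its receptor Unc5b both rose, at 13.2, 18.4 and 18.2 against 3.51, 3.76 and 2.95 FPKM and 8.23, 11.6 and 9.48 against 1.12, 1.03 and 1.22 FPKM. Sema3c, a secreted semaphorin, fell, at 2.94, 2.24 and 3.58 against 14, 16 and 5.77 FPKM. In Nrp1, Epha4 and Sema3c mCherry library 3 was the lowest control, and Ntn1 and Unc5b had all 3 controls together. Epha4, Ntn1 and Unc5b also passed without each library in turn. Sema3c kept the call only where the library left out was mCherry library 3. Nrp1 lost the call without H-Ras(G12V) library 1, 2 or 3.

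Among clustered protocadherins and neural cadherins, 8 of 48 tested members (16.7%) were called higher and 8 (16.7%) lower, with a median log2 fold change of -0.13 (11 and 17 without mCherry library 3, 3 to 5 and 3 to 5 without another library, 5 and 8 after scaling to a common sum, 5 and 8 after scaling to medians of ratios). Protocadherin isoforms share exons and their FPKM are uncertain. Cdh13 rose, at 60.5, 74.4 and 62.3 against 18.2, 17.1 and 27.4 FPKM, and Cdh8 fell, at 3.16, 2.19 and 2.88 against 8.23, 8.95 and 9.12 FPKM. Of neurofilaments, tubulins and microtubule-associated genes, 4 of 46 tested members (8.7%) were called higher and 6 (13%) lower, with a median log2 fold change of -0.32 (10 and 26 without mCherry library 3, 3 and 1 to 2 without another library). Nefm, the middle neurofilament chain, rose, at 125, 142 and 98 against 19.6, 16.1 and 63.4 FPKM, with mCherry library 3 in between, and Tubb6, a tubulin of glia and injured neurons, read 76.9, 119 and 81.7 against 20.7, 15.4 and 18.1 FPKM. The intermediate filaments Vim and Nes, of glia and progenitors, read 1394, 1837 and 1353 against 588, 552 and 458 FPKM and 81.2, 90.2 and 100.1 against 28.1, 28.2 and 29.6 FPKM. Map1b, a microtubule protein of growing axons, fell, at 65.4, 51.9 and 45.8 against 202, 229 and 75.2 FPKM. Cdh13, Cdh8, Tubb6, Vim and Nes also passed without each library in turn. Nefm and Map1b kept the call only where the library left out was mCherry library 3.

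Several abundant mRNAs of neurons and glia changed. Nnat, neuronatin, an imprinted gene of the endoplasmic reticulum, rose to 2479, 3508 and 1986 against 856, 828 and 786 FPKM. Ckb, brain creatine kinase, read 1851, 2507 and 2054 against 767, 674 and 1261 FPKM, and Mt1 and Mt2, metal-binding metallothioneins, 837, 1519 and 838 against 365, 388 and 460.2 FPKM and 557, 927 and 456 against 275, 287 and 195 FPKM. Cd63 and Cd9, tetraspanins of late endosomes and of the surface, read 655, 605 and 595 against 249, 245 and 447 FPKM and 412, 386 and 366 against 120.5, 118 and 212 FPKM. On the other side, Rtn1, a reticulon of neurons, read 347, 359.8 and 317 against 844, 859 and 715 FPKM, and Nsg2, an endosomal protein of neurons, 188, 193 and 177 against 447, 472 and 356 FPKM. Crym, a thyroid hormone-binding protein, read 17.4, 23.2 and 15 against 146, 159.9 and 88 FPKM, and Nrgn, the postsynaptic protein neurogranin, 20.3, 24.8 and 25.3 against 61.9, 69.8 and 206 FPKM. Nrgn was highest in mCherry library 3, and Crym lowest there among the controls. Nnat, Rtn1, Nsg2 and Crym also passed without each library in turn. Ckb and Cd63 kept the call only where the library left out was mCherry library 3. Mt1 lost the call without mCherry library 1 or 2. Mt2 lost the call without H-Ras(G12V) library 1 or 2 or mCherry library 1 or 2. Cd9 lost the call without H-Ras(G12V) library 1. Nrgn lost the call without H-Ras(G12V) library 1, 2 or 3.

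In genes of growth and protein synthesis more members were called higher than lower, mostly by small amounts and with counts that depended on the fit. Of the cytosolic ribosomal proteins, 25 of 79 tested members (31.6%) were called higher and 0 (0%) lower, with a median log2 fold change of 0.57 (54 and 0 without mCherry library 3, 0 to 2 and 0 without another library, 8 and 0 after scaling to a common sum, 15 and 0 after scaling to medians of ratios). By sign alone 78 of the 79 were higher. The call of this group depended on the libraries and the scaling as the bracket shows, and mCherry library 3 was lower than libraries 1 and 2 by a median of -0.43. With the replicate number added to the fit as a block, 4 were called higher. Rpl28 read 1052, 1227 and 1199 against 769.7, 696 and 532 FPKM. The largest log2 fold change among the called members was that of Rps27l, a paralogue of Rps27 induced by p53, at 377, 286 and 461 against 189, 171 and 196 FPKM. Rps27l lost the call without H-Ras(G12V) library 1 or 3 or mCherry library 1 or 2. Rpl28 lost the call without H-Ras(G12V) library 1, 2 or 3 or mCherry library 2. For ribosome biogenesis and nucleolar genes, 8 of 59 tested members (13.6%) were called higher and 0 (0%) lower, with a median log2 fold change of 0.21 (11 and 0 without mCherry library 3, 0 to 3 and 0 without another library, 1 and 0 after scaling to a common sum, 5 and 0 after scaling to medians of ratios). That share was close to the 10.3% of all tested genes, and with the replicate block 0 were called higher. Gnl3, nucleostemin, read 37.5, 29.5 and 40 against 25.3, 23 and 21.4 FPKM. In the list of the MYC family and nucleotide synthesis, 11 of 37 tested members (29.7%) were called higher and 1 (2.7%) lower, with a median log2 fold change of 0.35 (17 and 4 without mCherry library 3, 3 to 6 and 0 without another library). Myc rose, at 28.2, 32.6 and 29.6 against 14.3, 14 and 10.6 FPKM, and Mycl fell, at 6.5, 5.01 and 6.2 against 22.5, 24.5 and 8.48 FPKM, where mCherry library 3 was close to the H-Ras(G12V) libraries. Mthfd1l and Shmt2, of mitochondrial one-carbon metabolism, read 9.38, 10.6 and 13.9 against 3.33, 3.37 and 3.61 FPKM and 40.4, 48.4 and 42.4 against 20.1, 17.2 and 23 FPKM. Myc, Mthfd1l and Shmt2 also passed without each library in turn. Mycl kept the call only where the library left out was mCherry library 3. Gnl3 lost the call without H-Ras(G12V) library 1 or 3 or mCherry library 1 or 2.

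In the list of aminoacyl-tRNA synthetases, amino acid transport and serine synthesis, 7 of 40 tested members (17.5%) were called higher and 0 (0%) lower, with a median log2 fold change of 0.29 (18 and 0 without mCherry library 3, 0 to 6 and 0 without another library). Sesn2, a leucine sensor, read 25.7, 28.9 and 29.2 against 12.5, 10.2 and 16.5 FPKM, Slc7a5, a transporter of large neutral amino acids, 118, 137 and 117 against 65.2, 60.1 and 77.5 FPKM, and Phgdh, the entry enzyme of serine synthesis, 127, 140.5 and 136 against 75.7, 76.7 and 86.3 FPKM. Glycolysis, lactate and glucose transport gave few calls: 1 of 27 tested members (3.7%) were called higher and 1 (3.7%) lower, with a median log2 fold change of 0.30 (15 and 1 without mCherry library 3, 1 to 2 and 0 without another library, 1 and 2 after scaling to a common sum). The lactate carrier Slc16a1 rose, at 40.3, 32.1 and 29.9 against 15.8, 16.5 and 15.4 FPKM, and Slc16a7, the neuronal lactate carrier, fell, at 3.18, 2.08 and 2.53 against 10.1, 11.6 and 4.02 FPKM. Without mCherry library 3 the glycolysis list had 15 higher calls, and mCherry library 3 itself stood above libraries 1 and 2 by a median of 0.54. Slc16a1 also passed without each library in turn. Slc16a7 kept the call only where the library left out was mCherry library 3. Sesn2 lost the call without H-Ras(G12V) library 1 or 3 or mCherry library 1. Slc7a5 lost the call without H-Ras(G12V) library 1 or mCherry library 1. Phgdh lost the call without mCherry library 1.

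Of hypoxia response genes, 4 of 22 tested members (18.2%) were called higher and 0 (0%) lower, with a median log2 fold change of 0.29 (8 and 2 without mCherry library 3, 1 to 2 and 0 without another library, 2 and 0 after scaling to a common sum). Plin2, which coats lipid droplets, read 24, 29.8 and 23.7 against 9.89, 10.3 and 9.95 FPKM, and Vegfa 42.7, 47.5 and 60.8 against 28.7, 29.7 and 34.4 FPKM. Heat shock proteins and metallothioneins were called as follows: 4 of 31 tested members (12.9%) were called higher and 1 (3.23%) lower, with a median log2 fold change of 0.22 (12 and 3 without mCherry library 3, 1 to 4 and 0 to 1 without another library, 3 and 2 after scaling to a common sum). Hspa5, the chaperone BiP, read 306, 286 and 307 against 214, 212 and 193 FPKM, a small rise. Proteasome subunits gave a single call: 1 of 38 tested members (2.63%) were called higher and 0 (0%) lower, with a median log2 fold change of 0.18 (1 and 1 without mCherry library 3, 0 and 0 without another library, 0 and 0 after scaling to a common sum, 0 and 0 after scaling to medians of ratios). The most abundant, Psmb4, read 271, 322 and 260.5 against 267, 246 and 217 FPKM, and groups overlapped. Plin2 also passed without each library in turn. Vegfa kept the call only where the library left out was mCherry library 3. Hspa5 lost the call without H-Ras(G12V) library 1 or 3 or mCherry library 1 or 2.

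Signalling pathways of development held single large changes. Of TGF-beta and BMP genes, 7 of 43 tested members (16.3%) were called higher and 2 (4.65%) lower, with a median log2 fold change of 0.10 (13 and 7 without mCherry library 3, 2 to 5 and 0 without another library, 6 and 5 after scaling to a common sum, 7 and 4 after scaling to medians of ratios). Grem1, a secreted BMP antagonist, read 5.9, 5.75 and 3.52 against 0.44, 0.45 and 0.13 FPKM. Inhba, a chain of activin, read 7.26, 5.7 and 3.93 against 0.97, 0.87 and 2.6 FPKM. Of Wnt genes, 9 of 37 tested members (24.3%) were called higher and 6 (16.2%) lower, with a median log2 fold change of 0.17 (13 and 10 without mCherry library 3, 4 to 5 and 2 to 3 without another library). The Wnt enhancers Rspo1 and Rspo2 moved in opposite directions, at 5.38, 5.93 and 3.81 against 0.38, 0.82 and 0.31 FPKM and 1.65, 2.25 and 1.71 against 10.3, 11.5 and 6.23 FPKM. Wnt5b rose, at 3.99, 3.79 and 2.75 against 0.84, 0.95 and 0.99 FPKM. Of Notch and bHLH genes, 9 of 29 tested members (31%) were called higher and 3 (10.3%) lower, with a median log2 fold change of 0.43 (14 and 6 without mCherry library 3, 3 to 7 and 1 to 4 without another library). Notch3 read 10.6, 11.6 and 10.9 against 3.65, 3.46 and 3.65 FPKM, its modifier Lfng 35.9, 40.2 and 36.6 against 15.4, 13.3 and 13.2 FPKM, and the neuronal factor Neurod2 fell, at 5.77, 6.56 and 4.25 against 19.5, 20.6 and 12 FPKM. Of the 9 hedgehog genes tested, 3 of 9 tested members (33.3%) were called higher and 1 (11.1%) lower, with a median log2 fold change of 0.11 (4 and 3 without mCherry library 3, 1 and 0 without another library, 1 and 1 after scaling to a common sum). The ligand Dhh read 2.13, 3.08 and 3.92 against 0.04, 0.05 and 0.42 FPKM, and it passed the filter through the H-Ras(G12V) libraries. Grem1, Rspo1, Rspo2, Wnt5b, Notch3, Lfng, Neurod2 and Dhh also passed without each library in turn. Inhba lost the call without H-Ras(G12V) library 1 or 2 or mCherry library 1 or 2.

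Retinoid genes were led by enzymes. 4 of 17 tested members (23.5%) were called higher and 0 (0%) lower, with a median log2 fold change of 0.19 (7 and 0 without mCherry library 3, 3 to 4 and 0 without another library). Cyp26b1, which degrades retinoic acid, read 11.5, 14.7 and 8.37 against 0.46, 0.42 and 0.46 FPKM. Aldh1a1 and Aldh1a3, which make it, read 20.8, 16.1 and 15.6 against 4.93, 4.33 and 5.71 FPKM and 3.15, 2.46 and 3.09 against 0.3, 0.33 and 0.35 FPKM. Enzymes of synthesis and of breakdown were thus both higher in all 3 H-Ras(G12V) libraries. Cyp26b1 and Aldh1a3 stayed below 1 FPKM in every mCherry library and passed the filter through the H-Ras(G12V) libraries. Cyp26b1, Aldh1a1 and Aldh1a3 also passed without each library in turn.

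Of the cytokines and chemokines, 6 of 21 tested members (28.6%) were called higher and 1 (4.76%) lower, with a median log2 fold change of 0.54 (14 and 5 without mCherry library 3, 2 to 4 and 1 without another library, 5 and 2 after scaling to a common sum). Tslp, Il33 and Il11, secreted by stressed epithelia and glia, read 4.36, 3.29 and 2.78 against 0.28, 0 and 0.15 FPKM, 4.59, 3.83 and 6.1 against 1.23, 0.56 and 1.01 FPKM and 3.61, 5.02 and 1.15 against 0.19, 0.31 and 0.58 FPKM. These genes averaged below 1 FPKM in the mCherry libraries and passed the filter through the H-Ras(G12V) libraries, so the share called higher is a description. Lcn2, lipocalin-2 of reactive astrocytes, read 54.4, 102 and 16.2 against 1.63, 4.8 and 6.73 FPKM, with H-Ras(G12V) library 2 far above library 3. Gimap4 rose with Gimap6, at 2.08, 1.62 and 2.67 against 0, 0 and 0.2 FPKM, while Coro1a, an actin-binding protein, fell, at 26.1, 35.9 and 23.9 against 48.5, 52.5 and 46.8 FPKM. Of the 22 GIMAP and lymphoid genes in the table, 5 were tested, and 2 of 5 tested members (40%) were called higher and 1 (20%) lower, with a median log2 fold change of -0.26 (2 and 2 without mCherry library 3, 2 and 0 to 1 without another library). Gimap4 and Gimap6 passed the filter through the H-Ras(G12V) libraries, where they are high, so their count is a description and supports nothing. Tslp, Il33 and Gimap4 also passed without each library in turn. Il11 and Lcn2 lost the call without H-Ras(G12V) library 1 or 2 or mCherry library 1 or 2. Coro1a lost the call without H-Ras(G12V) library 1 or 3 or mCherry library 1 or 2.

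The label of these cultures is primary neuron, and markers of other cell types were read to see what else they hold. Summed over 18 pan-neuronal markers, FPKM was 2723, 2880 and 2388 in the H-Ras(G12V) libraries and 4132, 4319 and 3267 in the mCherry libraries, with no overlap and mCherry library 3 the lowest control. 1 of 18 tested members (5.56%) were called higher and 5 (27.8%) lower, with a median log2 fold change of -0.63 (4 and 12 without mCherry library 3, 0 and 1 without another library). Rbfox3, the nuclear protein NeuN, read 9.88, 14 and 11 against 20, 23 and 47 FPKM. Excitatory neuron markers summed to 470, 491 and 422 FPKM against 394, 407 and 1004, above mCherry libraries 1 and 2 and below library 3. This sum follows its most abundant members. By the median over members of log2 differences from mCherry libraries 1 and 2, the H-Ras(G12V) libraries stood lower, at -1.03, -1.25 and -1.4. mCherry library 3 stood at -0.67 on that scale. Of these markers, 0 of 12 tested members (0%) were called higher and 6 (50%) lower, with a median log2 fold change of -0.94 (3 and 7 without mCherry library 3, 0 and 2 to 4 without another library). Inhibitory neuron markers summed to 975, 1230 and 1072 FPKM against 566, 578 and 1377, with mCherry library 3 again above all others. By the median over members the H-Ras(G12V) libraries stood at -0.16, -0.3 and 0.04 and mCherry library 3 at 0.49. Of these, 2 of 15 tested members (13.3%) were called higher and 5 (33.3%) lower, with a median log2 fold change of -0.51 (4 and 6 without mCherry library 3, 1 and 3 to 4 without another library). Calb2, calretinin, fell, at 17.1, 17.9 and 17.6 against 100, 96 and 57 FPKM, and Pvalb, parvalbumin, rose, at 8.18, 7.94 and 5.42 against 1.49, 1.62 and 1.36 FPKM. Calb2 and Pvalb also passed without each library in turn. Rbfox3 kept the call only where the library left out was mCherry library 3.

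**Figure D4:**
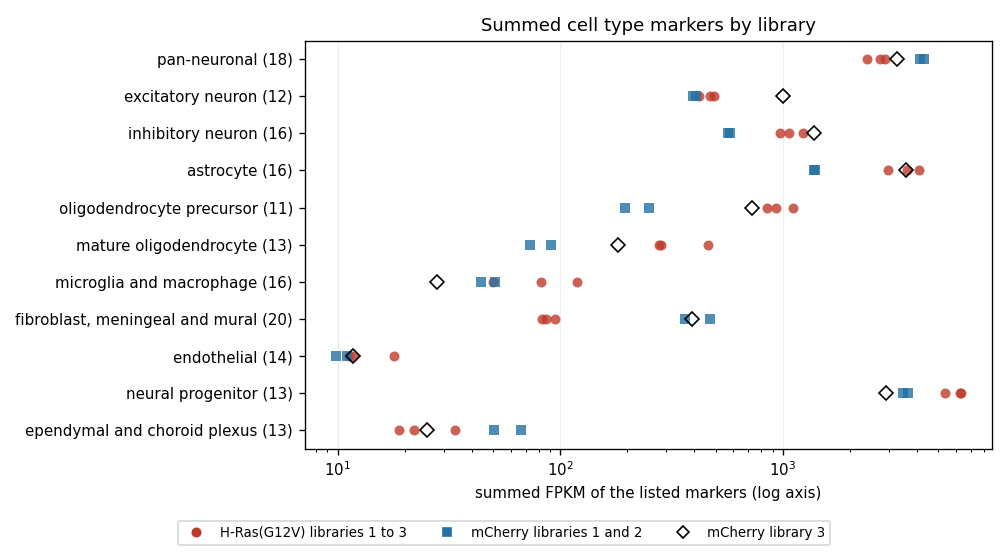
Summed FPKM (x axis, log scale) of the listed markers of each cell type, with the number of markers in the table in brackets. Symbols are as in the plot of the genes of mCherry library 3. The fibroblast, meningeal and mural sum separates the groups (82.7 to 94.6 against 363 to 473), and for both oligodendrocyte lists mCherry library 3 lies between the groups.

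Markers of astrocytes and of the oligodendrocyte lineage were present in every library. Astrocyte markers summed to 4092, 3636 and 2965 FPKM against 1395, 1386 and 3577, so the groups overlapped through mCherry library 3. 4 of 16 tested members (25%) were called higher and 0 (0%) lower, with a median log2 fold change of 0.38 (11 and 1 without mCherry library 3, 3 and 0 without another library). Gfap, the astrocyte filament, read 2305, 2166 and 1320 against 507, 519 and 1488 FPKM and was not called with all 6 libraries. Aldh1l1, an enzyme of folate metabolism used as an astrocyte marker, read 139, 160.4 and 127 against 50, 49.2 and 44.9 FPKM, with all controls together.

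Oligodendrocyte precursor markers summed to 930, 846 and 1115 FPKM against 252, 195 and 728. 8 of 11 tested members (72.7%) were called higher and 0 (0%) lower, with a median log2 fold change of 1.67 (11 and 0 without mCherry library 3, 0 to 1 and 0 without another library). Olig2 read 185, 190.1 and 242 against 47.7, 37.6 and 101 FPKM and Gpr17, of committed precursors, 45.8, 25 and 39.5 against 4.24, 3.57 and 20.8 FPKM. Of the 7 mature oligodendrocyte markers tested, 5 of 7 tested members (71.4%) were called higher and 0 (0%) lower, with a median log2 fold change of 1.58 (7 and 0 without mCherry library 3, 0 to 4 and 0 without another library). Mbp, myelin basic protein, read 148, 93.9 and 78.1 against 33.2, 24.9 and 46.7 FPKM, and Cldn11, a claudin of myelin, 44.4, 30 and 25.7 against 5.18, 4.91 and 13 FPKM. The rises were seen against all controls but were smaller against mCherry library 3, which stood 1.45 and 1.12 log2 units above libraries 1 and 2 by the medians of the 2 lists. Aldh1l1 also passed without each library in turn. Gpr17 kept the call only where the library left out was mCherry library 3. Olig2 lost the call without H-Ras(G12V) library 1, 2 or 3 or mCherry library 1. Mbp lost the call without H-Ras(G12V) library 1 or 2 or mCherry library 1 or 2. Cldn11 lost the call without H-Ras(G12V) library 1 or 2. The part of glial cells in the rises of Vim, Nes, Ncan, Tnc, Cd9 and Lgals1, which glia also express, was not tested.

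Microglia and macrophage markers summed to 82.1, 119 and 50.1 FPKM against 44.0, 51.2 and 27.9, at a low level and with overlap. 2 of 9 tested members (22.2%) were called higher and 0 (0%) lower, with a median log2 fold change of 0.89 (3 and 0 without mCherry library 3, 0 to 2 and 0 without another library). Cd68, a lysosomal protein of phagocytes, read 13.1, 26.4 and 9.67 against 3.87, 5.94 and 2.24 FPKM. Neural progenitor markers summed to 6296, 5341 and 6233 FPKM against 3641, 3471 and 2897, a list to which Vim contributes. 3 of 12 tested members (25%) were called higher and 0 (0%) lower, with a median log2 fold change of 0.50 (6 and 0 without mCherry library 3, 2 to 3 and 0 without another library). Endothelial markers were nearly absent, with 11 of 14 below 1 FPKM in every library, and of the 2 tested neither was called. For ependymal and choroid plexus markers, 0 of 6 tested members (0%) were called higher and 1 (16.7%) lower, with a median log2 fold change of -0.12 (0 and 2 without mCherry library 3, 0 and 1 without another library), the call being that of Ttr. Of 6 Schwann cell markers tested, 1 was called higher, Egr2, at 2.77, 4.39 and 3.61 against 0.35, 0.31 and 1.17 FPKM. Of 8 blood genes in the table, 7 were below 1 FPKM in every library. Egr2 also passed without each library in turn. Cd68 lost the call without H-Ras(G12V) library 1 or 2 or mCherry library 1.

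**Figure D5:**
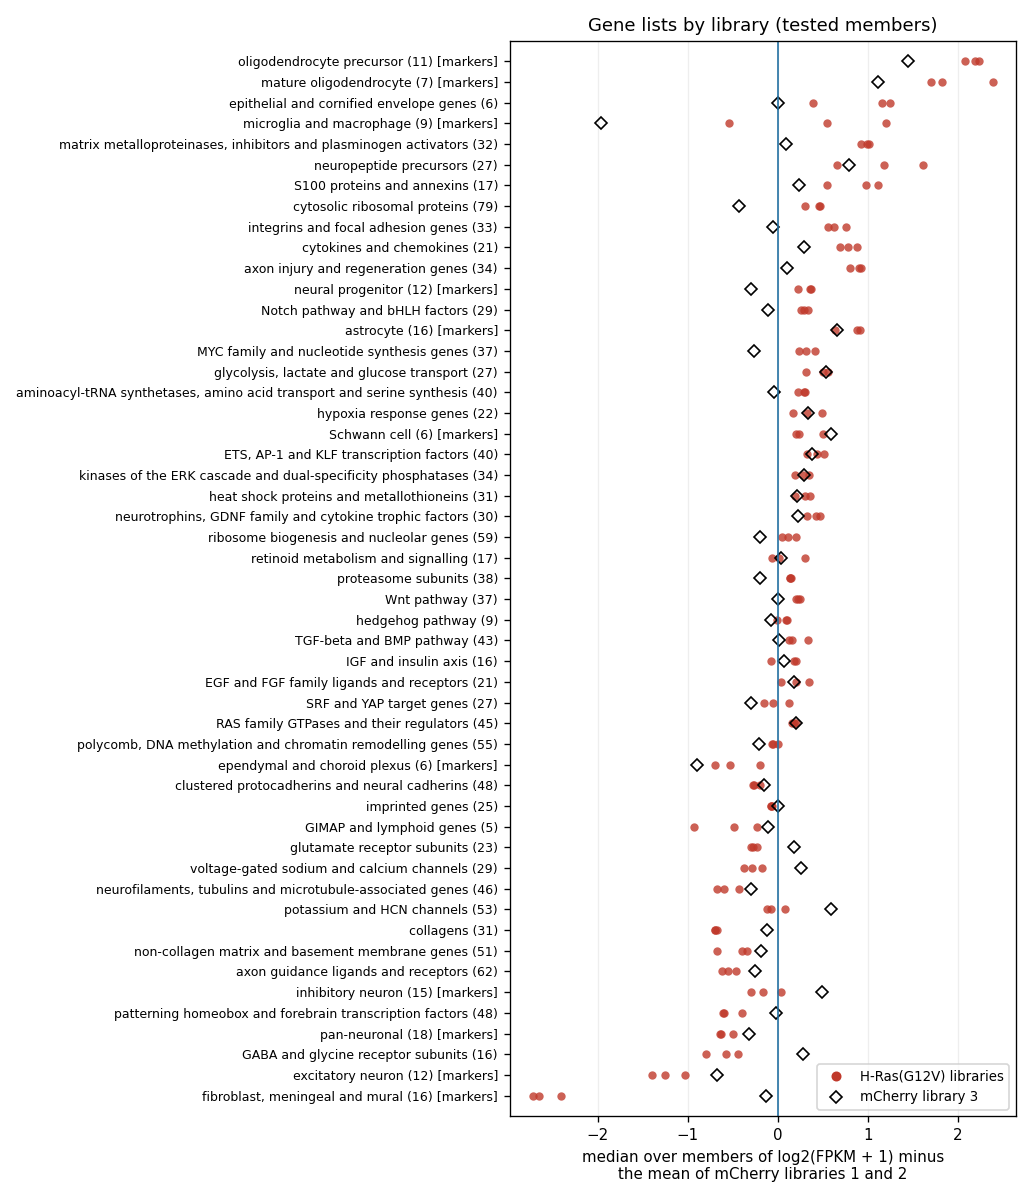
Median over the tested members of each list of log2(FPKM + 1) minus the mean of mCherry libraries 1 and 2 (x axis), for lists with at least 5 tested members, their number in brackets. Red circles are the 3 H-Ras(G12V) libraries and open diamonds mCherry library 3. Fibroblast, meningeal and mural markers lie lowest (-2.72, -2.40 and -2.65, with mCherry library 3 at -0.13) and the markers of oligodendrocyte precursors (2.19, 2.08 and 2.24, with mCherry library 3 at 1.45) and of mature oligodendrocytes (2.39, 1.70 and 1.83, with mCherry library 3 at 1.12) highest.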

How the data were processed

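The table deposited by the authors holds FPKM values to 2 decimals for each gene in each library, per the file headers. HISAT, Bowtie2, RSEM and the build mm9 appear in the submitters' processing notes, with no versions or roles. Groups come from the labels. The libraries, genes and lists were chosen with earlier results of these data known. The log2(FPKM + 1) values of genes averaging 1 FPKM or more were fitted with limma 3.58.1 (R 4.3.3, lmFit and eBayes with trend), with 2 groups and no covariate. Tests were two-sided, and p-values were adjusted by Benjamini-Hochberg over all 12724 genes, with 0.05 as the limit for a call. The added 1 FPKM makes fold changes of weakly expressed genes too small. The fit was tested on simulated data.

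Named genes followed a rule. It took up to 15 called genes per direction by log2 fold change with the higher group at 5 FPKM or more, and up to 15 by difference of mean FPKM. Both kinds were limited to genes whose groups do not overlap. It also took up to 5 called members per list, or the 2 most abundant members where fewer than 2 were called. Added were up to 10 genes per direction for mCherry library 3 and 8 that vary among the H-Ras(G12V) libraries, and fixed genes. Some of these are not named in the text.

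Depth was estimated from the steps of low FPKM in genes with 1 annotated transcript and GENCODE M21 lengths, of another build, and is rough. By counts rebuilt from it, chi-square per degree of freedom was 2.12 between mCherry libraries 1 and 2 and 9.59 to 60.5 between other pairs of a group. These values do not tell whether mCherry libraries 1 and 2 come from separate cultures. The main fit kept them as 2 controls, and averaging them into 1 gave 630 calls. The alternatives were other pseudocounts, filters and scalings, library weights, mCherry libraries 1 and 2 averaged, a replicate term and leaving out each library. Promoter windows are from RefSeq on GRCm38.p6. Of the 12724 tested genes, 10205 matched by symbol.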

Additional observations from a re-analysis of the deposited data

How the results depend on the processing

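Under all alternatives run, the number of genes called in the comparison was as follows. It was 2159 with a pseudocount of 0.5, 2126 with 5, 2099 with no filter on mean FPKM, 1589 with a mean of at least 5 FPKM and 2152 without the trend. With library weights it was 9028, 5112 higher and 3916 lower, where the weights put mCherry library 3 at 0.0795 and mCherry library 1 at 6.07. With mCherry libraries 1 and 2 averaged into 1 control it was 630, 383 higher and 247 lower. Scaling to a common sum gave 861 higher and 1331 lower, and scaling by medians of ratios 1051 and 1083. Leaving out 1 library gave 507 to 5722 calls, 309 to 3236 higher and 198 to 2486 lower. The highest counts came without mCherry library 3 and the lowest without H-Ras(G12V) library 1, which leave groups of 2 and 3 libraries. The counts of mCherry library 3 against the mean of libraries 1 and 2 were 802 and 544 after scaling to a common sum and 798 and 539 after scaling by medians of ratios.

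Libraries of the 2 groups share the numbers 1 to 3, and the labels do not say that a number marks a shared culture or day. Deviations from the group means of same-numbered libraries correlated at -0.039, 0.034 and 0.119, and those of differently numbered libraries at -0.12 to 0.111. With 3 libraries per group and mCherry library 3 far from libraries 1 and 2, these values cannot exclude a pairing. As the labels state none, the numbers were not taken to pair the libraries in the main fit. Fitted as a replicate block, they gave a count of 1681 calls, 1010 higher and 671 lower. With this replicate block the higher calls went from 25 to 4 among cytosolic ribosomal proteins and from 8 to 0 among ribosome biogenesis genes, and the lower calls from 8 to 5 among glutamate receptor subunits, while higher calls of microglia and macrophage markers went from 2 to 5. Of the genes named, Rpl28, Gnl3, Hspa5 and Atf3 lost the call.

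Directions of some genes that were not called with all 6 libraries turned under some alternatives. The log2 fold change of Ddn was -0.02 with a pseudocount of 5, -0.04 after scaling to a common sum, -0.56 with mCherry libraries 1 and 2 averaged, and -0.62 to 1.41 with 1 library left out. That of Rasgrp1 was -0.29, -0.06 and -0.69 in the same order, -0.01 by medians of ratios and -0.75 to 1.52 with 1 library left out. Rasgrf1 stood at -0.19 with the pseudocount of 5, at -0.51 with the averaged pair and at -0.56 to 1.51 with 1 library left out. Gap43 stood at -0.13 and -0.07 under the 2 scalings, -0.43 with library weights and -0.48 to 0.27 with 1 library left out. Snap25 stood at 0.41 with library weights and -0.51 to 0.39 with 1 library left out, and Hras at -0.30 to 0.01. Spink8 stood at 0.66 with library weights and -1.07 to 0.90 with 1 library left out, Gdf1 at -1.96 to 0.03 and Rps27 at -2.28 to 0.65. The cause was not tested.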

Other observations

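Some imprinted and chromatin genes moved. Of imprinted genes, 4 of 25 tested members (16%) were called higher and 3 (12%) lower, with a median log2 fold change of -0.14 (6 and 6 without mCherry library 3, 1 to 3 and 3 without another library, 3 and 5 after scaling to a common sum). Besides Igf2, Dcn and Nnat, Peg10, a gene of retroviral origin, read 19.3, 15.9 and 30.4 against 8.23, 7.89 and 8.06 FPKM, and Usp29 read 3.54, 2.83 and 3.31 against 11.8, 11.7 and 9.31 FPKM. For polycomb, DNA methylation and chromatin remodelling genes, 7 of 55 tested members (12.7%) were called higher and 7 (12.7%) lower, with a median log2 fold change of -0.03 (10 and 13 without mCherry library 3, 3 to 4 and 2 to 4 without another library). Chd3, a remodeller of the NuRD complex, fell, at 28.9, 28.5 and 24.6 against 92.8, 89.7 and 76.7 FPKM, as did Actl6b, the neuronal subunit of BAF, at 17.6, 28 and 14.2 against 56.8, 57 and 32 FPKM. Hmgb2, a chromatin protein of dividing cells, rose, at 59, 68.5 and 86 against 34.4, 29.7 and 18.1 FPKM. Usp29 and Chd3 also passed without each library in turn. Peg10 lost the call without H-Ras(G12V) library 1. Actl6b lost the call without H-Ras(G12V) library 1 or 3 or mCherry library 1 or 2. Hmgb2 lost the call without H-Ras(G12V) library 1, 2 or 3.

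The 8 genes that varied most between the H-Ras(G12V) libraries were Lcn2, Clcf1, Crabp1, a retinoic acid-binding protein, Esm1, an endothelial and tumour proteoglycan, Mgp, matrix Gla protein, the microglial genes C1qc and Tyrobp, and Rps27. All but Rps27 were highest in library 2 and lowest in library 3. Crabp1 read 4.73, 16.6 and 1.95 against 0.84, 0.92 and 0.16 FPKM, Esm1 11.7, 14.7 and 2.5 against 0.19, 0.07 and 0.43 FPKM, Mgp 11.7, 23.9 and 4.22 against 28.9, 12.7 and 33.7 FPKM, C1qc 5.75, 10.9 and 1.11 against 3.46, 5.01 and 0 FPKM and Tyrobp 13.6, 20 and 2.97 against 5.47, 4.76 and 0 FPKM. Rps27 was highest in H-Ras(G12V) library 3 and listed at 0 in library 1. C1qc and Tyrobp were listed at 0 in mCherry library 3.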
